A study of Mus musculus with 3 samples.

Results

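The venous Vwf-high endothelial cells (ECs) are the ECs of the mouse heart that carry transcripts of Vwf, the gene for von Willebrand factor. They carry none of the endocardial gene Npr3 or of the arterial genes Gja4, Gja5, Sema3g and Gkn3, while other such genes were allowed. They were picked cell by cell from the counts. A cell with at least 200 detected genes was taken as an EC when its unique molecular identifiers (UMIs, 1 per captured RNA molecule) of Pecam1, Cdh5, Kdr and Egfl7 summed to at least 3 and to more than 2 times each of 3 sums of fibroblast (FB), blood cell and mural cell genes. An EC was then kept when it held at least 2 UMIs of Vwf and none of Npr3, Gja4, Gja5, Sema3g or Gkn3. The rule found 97 cells among the 6915 cells of the series, namely 33 at 0 weeks, 57 at 2 weeks and 7 at 12 weeks.

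The study followed the non-cardiomyocytes of the heart through pressure overload, with the aim of describing how ECs and FBs change on the way to heart failure. Pressure was raised by transverse aortic constriction (TAC), a ligature that narrows the aortic arch, in male C57BL/6J JCL mice operated on at the age of 8 weeks. The healthy library came from hearts at TAC 0 weeks, the adaptive hypertrophy library from hearts at 2 weeks and the heart failure library from hearts at 12 weeks. All 3 groups were wild-type, the atria had been removed, and the cells were unselected non-cardiomyocytes from a Percoll gradient. There was 1 library per phase, and how many mice went into each is not given in the sources used here.

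Veins and venules carry blood back from the capillaries, and the ECs that line them are the main place where leukocytes stick to the vessel wall and leave the blood. They are known for storing von Willebrand factor and P-selectin in granules called Weibel-Palade bodies, from which both are released within minutes of a stimulus. Their identity is kept by the transcription factor COUP-TFII, encoded by Nr2f2, which represses the Notch programme of arterial ECs.

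The libraries held 12287823, 4465929 and 1712728 UMIs in 3892, 2231 and 792 cells at 0, 2 and 12 weeks. The Vwf-high ECs contributed 130548, 165060 and 22663 of these UMIs. Their median depth was 3644, 2232 and 3020 UMIs per cell, against 2316.5, 1624.5 and 1404 in all other ECs of the same libraries, and a rule that asks for 2 UMIs of 1 gene finds deep cells more often. The level of a gene in a group of cells is given as CPM, its summed UMIs divided by all UMIs of those cells and multiplied by 1000000. With 1 library per phase no test between phases was possible, and every interval in brackets is an exact 95% interval (Poisson for a level, Clopper-Pearson for a share, conditional binomial for a ratio of levels) that covers counting error only. A gene was called higher or lower when its CPM, with 10 CPM added on both sides, differed at least 2-fold and it had at least 20 UMIs over both groups. The 7 cells at 12 weeks make every level there coarse, since a gene with no UMI may still stand at up to 132 CPM. Between 1 and 5 cell barcodes were shared by each pair of libraries, and 1 Vwf-high EC carried a shared barcode.

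The share of Vwf-high ECs among all ECs was 3.25% (2.25 to 4.54%, 33 of 1015 ECs) at 0 weeks, 3.70% (2.81 to 4.77%, 57 of 1541 ECs) at 2 weeks and 2.87% (1.16 to 5.82%, 7 of 244 ECs) at 12 weeks. The 3 intervals overlap, so a difference was not detectable at this depth. Of all cells kept, they were 0.848% (0.584 to 1.19%), 2.55% (1.94 to 3.30%) and 0.884% (0.356 to 1.81%), and the intervals at 0 and 2 weeks do not overlap, which goes with the larger number of ECs in the 2-week library.

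The venous label rested on 4 markers, of which only Vwf was part of the rule. Vwf lies on chromosome 6 (125546774 to 125686679, plus strand, GRCm38), and its level was 1272 CPM (1085 to 1480) at 0 weeks, 1624 CPM (1435 to 1830) at 2 weeks and 1412 CPM (966 to 1993) at 12 weeks. Nr2f2 (chromosome 7, 70351944 to 70366735, minus strand) stood at 192, 212 and 265 CPM in these cells and at 47.9, 29.4 and 30.2 CPM in the other ECs. Lrg1 (chromosome 17, 56119678 to 56122001, minus strand), which encodes a secreted glycoprotein that modulates TGF-beta signalling, stood at 238, 448 and 441 CPM, against 23.95, 30.4 and 15.1 CPM. Vcam1 (chromosome 3, 116109949 to 116129688, minus strand), which encodes an adhesion molecule bound by leukocyte integrins, stood at 1203, 824 and 750 CPM, against 126, 85.9 and 270 CPM. All 4 markers were thus above the other ECs in every library, although all 17 UMIs of Vcam1 at 12 weeks lay in 1 cell. These cells were chosen on their own UMIs, so the contrast with the other ECs is a description and carries no test.

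Selp encodes P-selectin, the adhesion molecule that catches rolling leukocytes, and it was the first of the genes ranked over the 0- and 2-week libraries. It had 27 UMIs in 14 of 33 Vwf-high ECs at 0 weeks, 50 UMIs in 18 of 57 at 2 weeks and none in the 7 cells at 12 weeks. Its level was 207 CPM (136 to 301) and 303 CPM (225 to 399), against 14.3 and 6.35 CPM in the other ECs, a ratio of 14.5 (8.59 to 23.9) and 47.7 (27.6 to 85.7). Of blood cells at 0 weeks, 0.110% (1 of 908, median 2675 UMIs) had a Selp UMI, against 42.4% of the Vwf-high ECs (median 3644 UMIs), and with all cells thinned to 1000 UMIs the shares were 0% and 24.2%. Sele, the E-selectin gene, was rare, with 4 and 5 UMIs at 0 and 2 weeks. Ackr1, the chemokine scavenger of venules, had 12 UMIs in 5 cells at 2 weeks and none at 0 weeks.

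The same markers set the Vwf-high ECs apart from ECs that carried Npr3 or arterial UMIs to unequal degrees. In the 44 ECs with at least 1 Npr3 UMI of the healthy library, Vwf (1106 CPM), Nr2f2 (164 CPM) and Vcam1 (912 CPM) lay close to the Vwf-high ECs, with a ratio of 1.16 (0.664 to 2.02) for Nr2f2 and 1.32 (1.06 to 1.64) for Vcam1, but Lrg1 had no UMI, which allows up to 14.95 CPM. In the 73 healthy arterial ECs, which had at least 2 UMIs of the arterial genes of the rule and none of Npr3, Nr2f2 stood at 17.1 CPM and Selp at 47.1 CPM, so that the Vwf-high ECs were 11.2 (3.86 to 44.2) and 4.39 (2.11 to 9.81) times higher. Nr2f2 had no UMI in the 123 arterial ECs at 2 weeks, which allows up to 9.82 CPM. Ephb4, the venous receptor for ephrin-B2, separated the groups less, at 99.6, 170 and 132 CPM in the Vwf-high ECs and 50.9, 109 and 83.2 CPM in the other ECs.

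**Figure D1:**
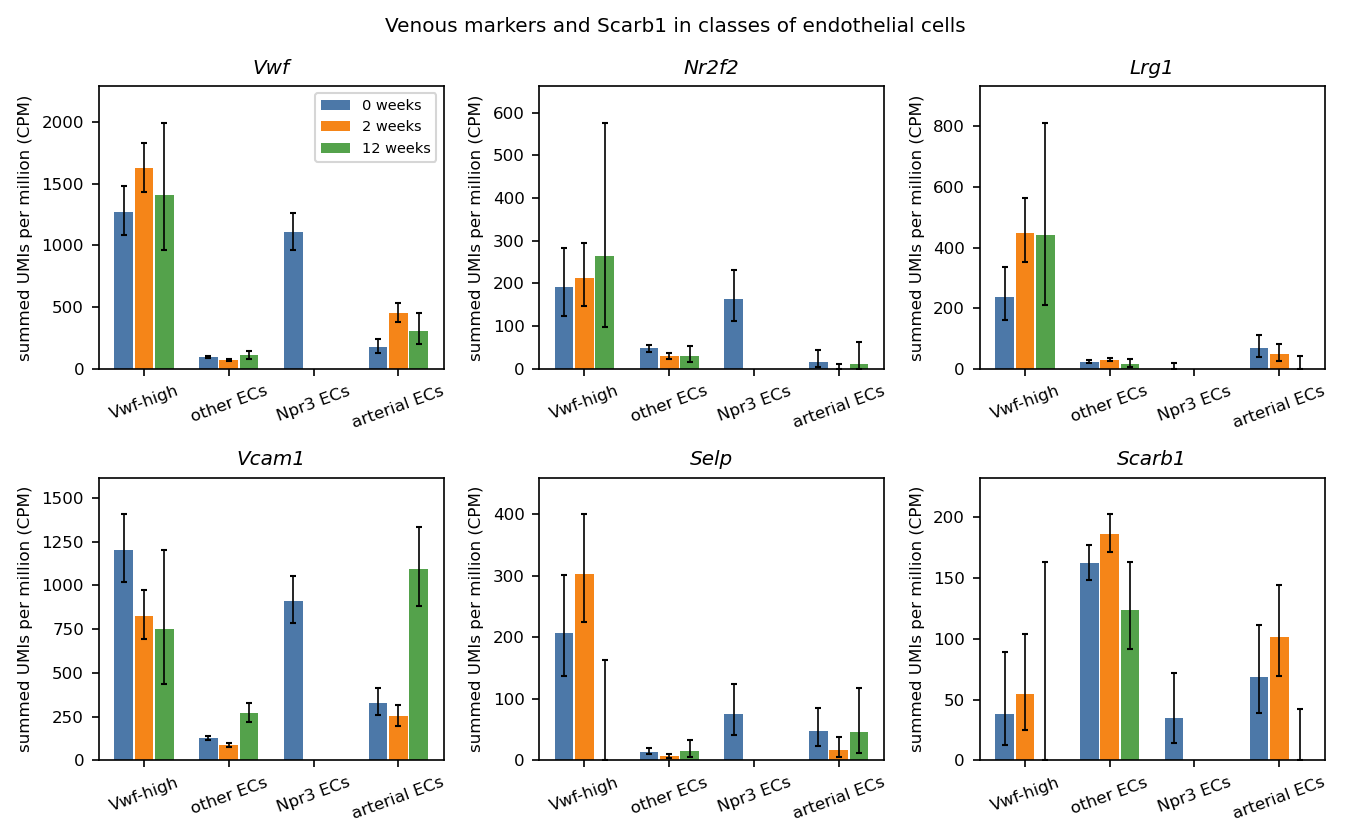
Level (CPM, vertical axis, linear) of 6 genes in Vwf-high ECs, all other ECs, Npr3-bearing ECs (0 weeks only, since 5 and 4 cells were found later) and arterial ECs at 0, 2 and 12 weeks, with exact Poisson 95% intervals as bars. Lrg1 is at 0 in the Npr3-bearing ECs, Nr2f2 is low in the arterial ECs, and Scarb1 is lower in the Vwf-high ECs than in the other ECs at 0 and 2 weeks.

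At the edge of the rule the other markers were higher in the members than in the ECs just outside. The 29 members with exactly 2 Vwf UMIs held Nr2f2 at 245 CPM, Lrg1 at 194 CPM, Vcam1 at 865 CPM and Selp at 194 CPM. Further inside the rule Nr2f2 was lower (228 CPM at 3 or 4 Vwf UMIs and 161 CPM at 5 or more) and Vcam1 had no order (1125 and 889 CPM). The 64 ECs with 1 Vwf UMI that met the rest of the rule held them at 78.2, 33.5, 274 and 33.5 CPM, and the 2198 such ECs without Vwf at 36.8, 23.5, 47.2 and 4.58 CPM. Another 76 ECs had 2 or more Vwf UMIs but were left out by the rule, 33 of them for an Npr3 UMI and 43 for an arterial UMI alone. In the latter, Lrg1 stood at 135 CPM and Nr2f2 at 32.1 CPM.

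The RefSeq promoters of Selp and Icam1 are shown here because both are leukocyte adhesion genes that stood higher in these cells than in the other ECs at 0 and 2 weeks. NF-kB is the textbook activator of such genes, and its loose recognition pattern, 3 G, any 5 bases and 2 C on either strand, was searched in the 250 bases before each start site (GRCm38.p6). The Selp window is chr1:164115014-164115263 (plus strand) and the Icam1 window is chr9:21015690-21015939 (plus strand). Capitals mark the matched letters, in Selp on the plus strand and in Icam1 on the minus strand, so that its printed letters open with 2 G and end with 3 C.
Selp: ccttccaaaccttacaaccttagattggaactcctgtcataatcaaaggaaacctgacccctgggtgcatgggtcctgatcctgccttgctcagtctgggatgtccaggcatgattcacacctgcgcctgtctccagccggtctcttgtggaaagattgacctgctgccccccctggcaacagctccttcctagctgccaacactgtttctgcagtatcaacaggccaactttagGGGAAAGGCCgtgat
Icam1: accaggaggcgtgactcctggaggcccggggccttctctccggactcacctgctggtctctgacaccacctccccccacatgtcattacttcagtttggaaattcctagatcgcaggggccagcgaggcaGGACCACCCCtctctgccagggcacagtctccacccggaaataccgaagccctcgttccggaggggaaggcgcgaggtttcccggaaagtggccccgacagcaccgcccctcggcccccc
Each window held 1 match to this pattern, from 15 to 6 bases before the start in Selp and from 120 to 111 bases before it in Icam1. Possible NF-kB sites that depart from the pattern were not marked in either window, and binding was not tested. The same pattern was found in 45.8% of all 32851 promoter windows of this length, so a match says little by itself. Among 12 leading genes of the comparison with other ECs, 7 had an entry and 5 of these held the pattern.

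The markers did not all fall in the same cells. Of the 97 Vwf-high ECs, 83 held a UMI of at least 1 of Nr2f2, Lrg1 and Vcam1, 15 held all 3, and 14 held none. At 0 weeks Nr2f2 was seen in 19 of 33 cells with at most 4 UMIs per cell, Lrg1 in 11 with at most 6 and Vcam1 in 24 with at most 36. At 2 weeks they were seen in 24, 24 and 32 of 57 cells. Selp and Lrg1 shared cells, since 22 of the 32 cells with Selp also had Lrg1, which was seen in 38 of all 97 cells. The 48 cells with Selp or Lrg1 had a median of 3012 UMIs, against 2332 in the other 49. The part of depth in this sharing was not tested. In the 48 cells with Selp or Lrg1, Vcam1 stood at 1304 CPM and Nr2f2 at 262 CPM, against 605 and 146 CPM in the other 49. Hs3st1, which encodes the enzyme that adds the antithrombin-binding sulfate to heparan sulfate, stood at 280 CPM in the first group and 86.4 CPM in the second.

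A second contrast ran along Igfbp5, which encodes an insulin-like growth factor binding protein. It had a UMI in 12 of 33 cells at 0 weeks, 15 of 57 at 2 weeks and 4 of 7 at 12 weeks, with up to 75 UMIs in a cell. In these 31 cells Cd36, which encodes the fatty acid transporter of capillary ECs, stood at 867 CPM, against 2207 CPM in the 66 cells without Igfbp5. Igfbp7 stood at 347 against 1517 CPM, Rgcc at 215 against 502 CPM, Lpl, the lipoprotein lipase gene, at 173 against 401 CPM and Lrg1 at 215 against 452 CPM. The contrast in Lrg1 came from the 2-week library (112 against 652 CPM), and Lrg1 stood at 236 against 238 CPM at 0 weeks and at 546 against 162 CPM at 12 weeks. That in Lpl lay mostly at 0 weeks (94.5 against 510 CPM). At 2 weeks Lpl stood at 273 (159 to 437) against 331 (229 to 462) CPM, and it had no UMI at 12 weeks. Calcrl was the other way round, at 760 against 391 CPM. Cytl1, which served here as both an endocardial and a venous marker, had UMIs in 9 of the 31 cells and 5 of the 66. Over all Vwf-high ECs at 0 weeks its level was 0.120 (0.0728 to 0.187) times that of the Npr3-bearing ECs. It was 0.0835 (0.0512 to 0.129) times that of the arterial ECs, so Cytl1 was not particular to endocardial cells. The split by Igfbp5 was chosen after the values were seen and is only a description.

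**Figure D2:**
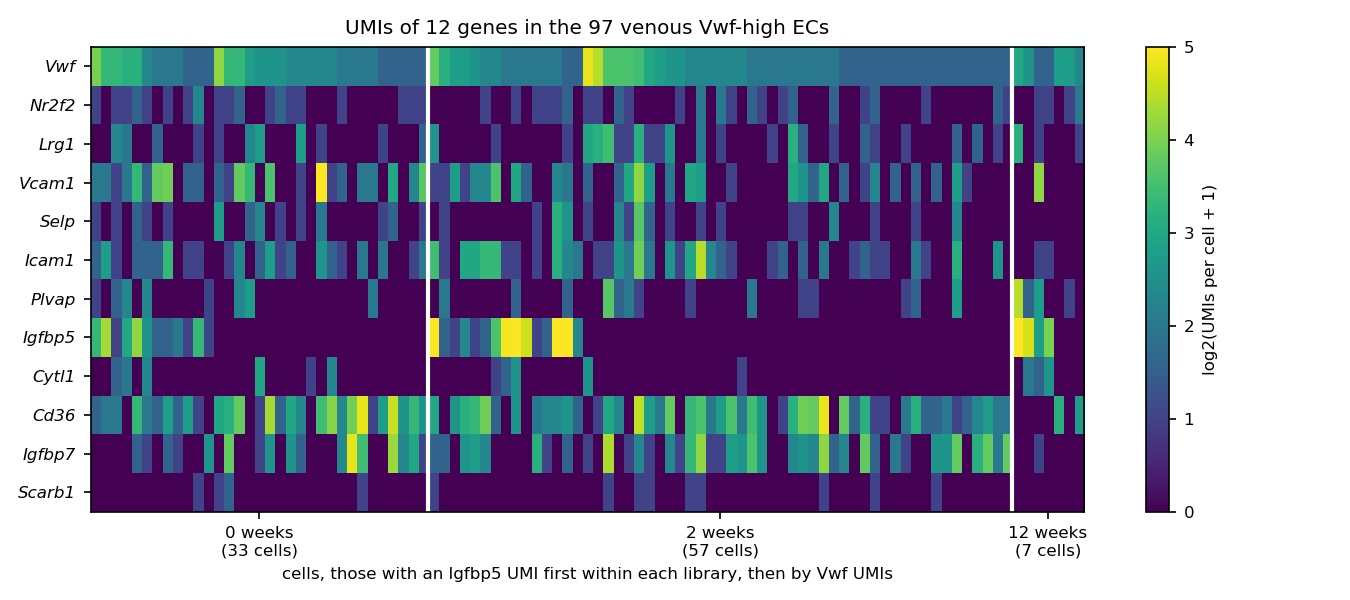
UMIs per cell, as log2(UMIs + 1), of 12 genes (rows) in each of the 97 Vwf-high ECs (columns), grouped by library and, within a library, with the cells that hold Igfbp5 first. Vcam1 and Icam1 appear in most cells at 0 and 2 weeks, Igfbp5 is held by 12, 15 and 4 cells, and Scarb1 by 4 cells at 0 weeks and 9 at 2 weeks.

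Markers of other cell types were summed in these cells and in the other ECs. Prox1 or Lyve1, defining genes of lymphatic ECs, had a UMI in 8 of the 97 cells, and 3 of them had 2 or more. The 6 lymphatic genes summed to 107, 78.8 and 132 CPM at 0, 2 and 12 weeks, against 165, 46.8 and 93.2 CPM in the other ECs. Hapln1 or Cytl1, genes of the endocardial list of which Cytl1 was also high in arterial ECs, had a UMI in 6 of 33, 5 of 57 and 3 of 7 cells. The 8 endocardial genes summed to 322, 170 and 1103 CPM against 590, 141 and 743 CPM. This list includes Npr3, which the rule excluded from the Vwf-high ECs, while the other ECs kept the Npr3-bearing cells. Part of the lower sum at 0 weeks was thus fixed in advance. The summed level of 8 FB genes was 475, 133 and 529 CPM at 0, 2 and 12 weeks, against 640, 115 and 494 CPM in the other ECs, with Dcn as the member with most UMIs at 0 weeks. The 9 blood cell genes summed to 130, 24.2 and 176 CPM against 165, 41.4 and 234 CPM, and the 4 neural genes had no UMI. The 8 mural genes summed to 91.9, 36.4 and 221 CPM against 164, 73.2 and 118 CPM, the last from 5 UMIs, and the 7 cardiomyocyte genes summed to 375, 394 and 132 CPM against 765, 551 and 197 CPM. The 6 platelet genes summed to 46.0, 103 and 88.2 CPM against 42.6, 31.1 and 265 CPM. Itga2b, the integrin chain of platelets, was the 1 gene of that list called higher at 0 and 2 weeks, with 5 and 12 UMIs. The 7 proliferation genes summed to 375 CPM against 215 CPM at 0 weeks, with 49 UMIs, and had 1 UMI at 2 weeks and none at 12 weeks. Top2a, a gene of that list, had its 10 UMIs at 0 weeks in 2 of the 33 cells. The part these RNAs play in the results was not tested.

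Against the other ECs, 27 of 3365 genes were at least 2-fold higher in the Vwf-high ECs in all 3 libraries (0.802% of the genes tested) and 67 were at least 2-fold lower (1.99%). Of the lower genes, 54 had no UMI in the Vwf-high ECs of at least 1 library, and with such zeros set to 3 UMIs 20 were lower and 28 higher. With the 0- and 2-week libraries alone, chosen as an alternative after the values were seen, 103 of 8358 genes were higher (1.23%) and 165 lower (1.97%). The rule used the same cells, so these counts describe what came with Vwf.

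Cpe and Ptgs1 ranked first and second among the higher genes. Cpe, which encodes a carboxypeptidase that trims peptide hormones, stood at 743, 521 and 441 CPM against 173, 41.1 and 35.3 CPM in the other ECs, a ratio of 4.29 (3.42 to 5.34), 12.7 (9.51 to 16.8) and 12.5 (4.97 to 30.3). Cpe was higher still in the healthy Npr3-bearing ECs, at 1729 CPM, and low in arterial ECs, at 17.1 CPM. The other ECs included 44 Npr3-bearing ECs at 0 weeks, 5 at 2 weeks and 4 at 12 weeks. Their part in the smaller Cpe ratio at 0 weeks was not tested. Ptgs1, which encodes cyclooxygenase 1, the first enzyme of prostaglandin and prostacyclin synthesis, stood at 314, 285 and 221 CPM against 65.9, 35.8 and 47.9 CPM. Slco2a1, the prostaglandin transporter gene, could be tested at 0 and 2 weeks, where it was 9.66 (5.86 to 15.5) and 5.52 (3.67 to 8.12) times higher. Among the others named by the 2-library ranking were Prss23, which encodes a secreted protease, at 4.19 and 13.9 times the other ECs, Lbp, the lipopolysaccharide-binding protein gene, at 5.37 and 9.63 times, Pdia5, a disulfide isomerase gene of the endoplasmic reticulum, at 10.6 and 9.60 times, and Golm1, a Golgi membrane protein gene, at 7.88 and 6.70 times. Rasa4 and Nuak1 were also in that ranking, at 4.42 to 6.99 times the other ECs in both libraries, as was 2200002D01Rik.

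Receptors and regulators formed another part of the higher genes. Calcrl, the shared receptor chain for adrenomedullin and calcitonin gene-related peptide, stood at 391, 582 and 971 CPM against 92.5, 119 and 47.9 CPM. Adm, which encodes the ligand adrenomedullin, went the other way, with 2, 1 and 0 UMIs in the Vwf-high ECs and 111, 74.2 and 85.7 CPM in the other ECs. Il6st, which encodes gp130, the signalling chain of the interleukin-6 receptor family, stood at 322, 503 and 265 CPM against 91.2, 125 and 83.2 CPM. Hs3st1 was 4.22, 5.58 and 10.5 times higher. Igf1, the growth factor gene, was 4.91 (2.47 to 9.03) and 10.1 (6.69 to 14.9) times higher at 0 and 2 weeks, and Nbl1, which encodes a BMP antagonist, was 4.16 and 9.89 times higher. Cd55, which protects cells from complement, was 5.00 and 6.55 times higher. The remaining genes named by rank were Emp3, Ankrd33b, Fmo2 (a flavin monooxygenase gene), Cxcl1 (a neutrophil chemokine gene), Klk8, Mustn1, Rcan1 (a calcineurin regulator gene), Grina and Ctsh (a lysosomal protease gene), with ratios between 2.32 and 8.08 in the 3 libraries. For Ankrd33b and Rcan1 the interval at 12 weeks included 1, at 0.958 to 11.8 and 0.709 to 8.12. Some genes ranked over 3 libraries were as high or higher in the healthy Npr3-bearing ECs. The ratio to those cells was 0.666 (0.452 to 0.966) for Il6st and 0.247 (0.171 to 0.347) for Ctsh. For Ptgs1, Emp3, Mustn1, Rcan1 and Grina the interval included 1. Calcrl, Hs3st1, Ankrd33b, Fmo2, Cxcl1 and Klk8 were 2.01 to 5.27 times higher than there. Against healthy arterial ECs the interval included 1 for Hs3st1, Emp3, Rcan1, Grina and Ctsh.

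**Figure D3:**
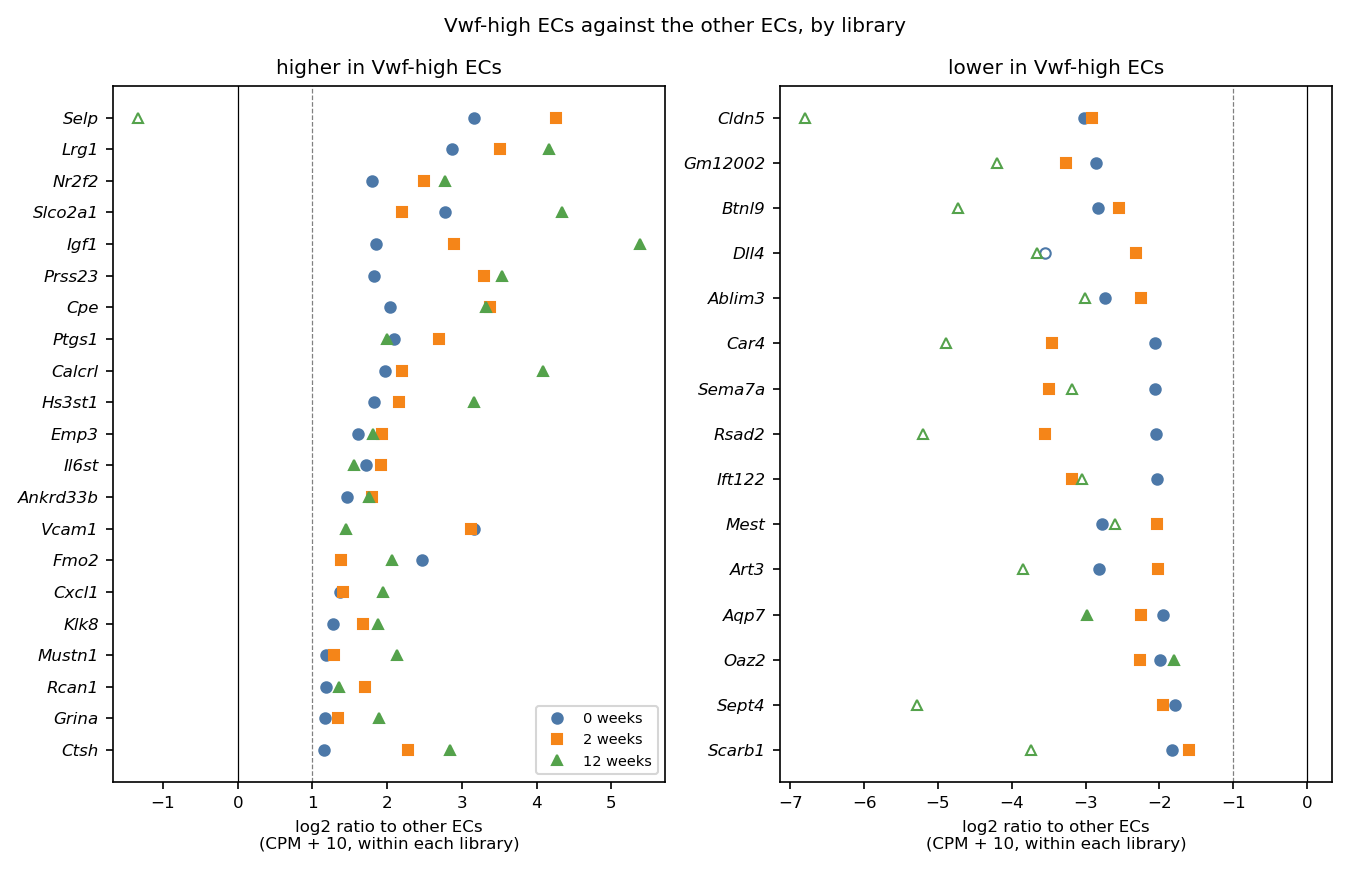
Log2 ratio of the level in Vwf-high ECs to that in the other ECs of the same library (horizontal axis, 10 CPM added), for genes higher (left) and lower (right), with 1 mark per library and open marks where the Vwf-high ECs had no UMI. All named genes lie beyond the dashed 2-fold line in the 3 libraries except Selp, which had no UMI at 12 weeks.

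The lower genes included Cldn5, Btnl9, Car4 and Dll4. Cldn5, which encodes the main claudin of endothelial tight junctions, had 16, 11 and 0 UMIs in the Vwf-high ECs, or 123 and 66.6 CPM at 0 and 2 weeks, against 1067, 566 and 1101 CPM in the other ECs. The ratio was 0.115 (0.0656 to 0.187) at 0 weeks and 0.118 (0.0587 to 0.211) at 2 weeks. Cldn5 was likewise low in the healthy Npr3-bearing ECs, at 79.7 CPM, and high in arterial ECs, at 1893 CPM. Btnl9, a butyrophilin-like gene of capillary ECs, had 3, 7 and 0 UMIs against 224, 296 and 254 CPM. Car4, the capillary carbonic anhydrase gene, had 7, 3 and 0 UMIs against 255, 299 and 287 CPM. Dll4, the Notch ligand gene of arterial and tip ECs, had 0, 3 and 0 UMIs against 107, 130 and 116 CPM. Aqp7, which encodes a channel for glycerol, stood at 46.0, 60.6 and 44.1 CPM against 206, 326 and 416 CPM, and Oaz2 at 61.3, 54.5 and 88.2 CPM against 273, 298 and 333 CPM. Gm12002, Ablim3, Sema7a, Rsad2 (an interferon-induced antiviral gene), Ift122, Mest, Art3 and Sept4 completed the ranking, each with at most 11 UMIs in a library. A copy of the chemokine gene Ccl21a was also in it, with no UMI in the Vwf-high ECs, but near-identical copies of this gene can share reads and its value is uncertain.

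Scarb1, the receptor for high-density lipoprotein on which the study centres, was among the lower genes. It had 5, 9 and 0 UMIs in the Vwf-high ECs, or 38.3 CPM (12.4 to 89.4) at 0 weeks and 54.5 CPM (24.9 to 104) at 2 weeks, against 162, 186 and 124 CPM in the other ECs. The ratio was 0.236 (0.0763 to 0.554) at 0 weeks and 0.293 (0.133 to 0.560) at 2 weeks. At 12 weeks the absence of UMIs allows up to 132 CPM, so a difference from the other ECs was not detectable at this depth. Scarb1 stood at 68.5 and 101 CPM in arterial ECs at 0 and 2 weeks. A Scarb1 UMI was seen in 12.1% of the Vwf-high ECs at 0 weeks (4 of 33), against 3.96% of blood cells (36 of 908, median 2675 UMIs) and 31.4% of the other ECs.

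The gene lists are given by function. Of 15 arterial genes, 9 were lower in all 3 libraries (median log2 ratio -1.92 against -0.07 over all genes tested), 4 of which were genes of the rule and the other 5 were Hey1, Dll4, Unc5b, Alpl and Cxcl12. With zeros set to 3 UMIs, 1 of the 15 was lower and the median was -0.66. Of 10 capillary genes, Car4 and Cd300lg were lower, while Cd36 had ratios of 0.884, 0.765 and 0.284. Summed, the 10 capillary genes stood at 23907, 27820 and 14914 CPM, against 23277, 34166 and 24899 CPM in the other ECs. The ratios of these sums were 1.03, 0.814 and 0.599, so at 0 weeks the summed level was close to that of the other ECs. Of 15 further venous markers, Plvap, which encodes the protein of fenestral diaphragms, and Cpe were higher among the 10 tested in 3 libraries, and Selp, Icam1 and Bgn joined them among the 13 tested at 0 and 2 weeks. Among 22 leukocyte adhesion genes, Vcam1 and Cxcl1 were higher and Cxcl12 lower of 13 tested, and the median of -0.13 was close to that of all genes. Icam1, whose product binds leukocyte integrins, stood at 460, 963 and 88.2 CPM against 188, 181 and 227 CPM, so it was higher at 0 and 2 weeks and not at 12 weeks.

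Genes of clotting and of the Weibel-Palade body were mixed. Vwf belongs to the haemostasis and Weibel-Palade lists, but the rule fixed its direction. Of 24 haemostasis genes, Ptgs1 was the other gene higher among 10 tested in 3 libraries, and Procr, the endothelial protein C receptor gene, joined them at 0 and 2 weeks at 4.24 (1.60 to 9.61) and 6.31 (2.44 to 14.6) times. Of 18 Weibel-Palade genes, none beside Vwf was higher in the 3 libraries among the 10 tested, and Igfbp7, also stored there, was lower, at 827, 1406 and 44.1 CPM against 3066, 4474 and 2545 CPM. At 0 and 2 weeks Rab27a, which encodes a GTPase that controls the release of these granules, was 6.82 (2.68 to 15.4) and 9.07 (3.59 to 21.2) times higher. Angpt2, another granule cargo, had no UMI in the Vwf-high ECs of any library, and 20.3, 15.7 and 20.2 CPM in the other ECs.

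Matrix genes split. Of 44 matrix genes in the table, 29 could be tested in 3 libraries, with Igfbp5 higher and Col4a2, Lamb1, Sparc, Sparcl1, Col18a1 and Igfbp7 lower. Sparc, which encodes a collagen-binding glycoprotein, stood at 1478, 1224 and 397 CPM against 3694, 3563 and 2059 CPM. With zeros set to 3 UMIs, 4 were lower in place of 6. At 0 and 2 weeks Eln, the elastin gene, was 2.37 and 4.06 times higher, Col5a2 3.58 and 4.72 times, Bgn 2.47 and 3.92 times and Ctgf 5.76 and 6.04 times. Of the BMP and TGF-beta list, Bmp2 (5.94 and 12.8 times) and Bmp4 (2.18 and 2.34 times) were higher in those 2 libraries among 17 tested. Of the VEGF and angiopoietin list, Vegfc, the lymphatic growth factor gene, was 2.43 and 3.59 times higher, while Pgf had no UMI in the Vwf-high ECs.

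The inflammation list had 6 of 17 tested genes higher at 0 and 2 weeks, namely Il6, Cxcl1, Icam1, Il6st, Lrg1 and Ch25h, and none lower, against 1.23% of all genes tested. Its median log2 ratio was 0.83 against -0.07 over all genes. In the 3 libraries together, 2 of 10 were higher, Cxcl1 and Il6st. Of 20 fatty acid genes, none was higher and Scarb1 alone was lower among 13 tested, and with zeros set to 3 UMIs none was lower. None of 19 immediate-early genes, which mark cell stress during dissociation among other stimuli, was higher or lower in the 3 libraries (median log2 ratio 0.13). In the interferon list Rsad2 was lower of 12 tested, in the hypoxia and glycolysis list Adm of 14 (none with zeros set to 3 UMIs), and in the endothelial-to-mesenchymal list none of 4 passed in either direction. The antigen and complement list (11 tested) and the circadian list (2 tested) had no gene past 2-fold in all 3 libraries. These lists were put together with earlier results of the same data known.

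The comparison of phases asked which of these levels differed in hypertrophy and failure. The 2- and 12-week levels were both set against the same single healthy library, and against each other. Between 0 and 2 weeks, 152 of 2349 genes were at least 2-fold higher in the Vwf-high ECs (6.47%) and 128 lower (5.45%). In the other ECs, whose levels rest on far more UMIs, 44 of the same genes were higher and 44 lower (1.87% each). The markers stayed within 2-fold, with Vwf at a ratio of 1.28 (1.05 to 1.56), Nr2f2 at 1.11 (0.644 to 1.93), Lrg1 at 1.89 (1.23 to 2.97), Selp at 1.47 (0.900 to 2.43) and Vcam1 at 0.685 (0.540 to 0.868).

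A few inflammation and adhesion genes were higher at 2 weeks. Of 13 inflammation genes tested 3 were higher (Il6, Icam1 and Ch25h), and of 14 leukocyte adhesion genes 4 were (Icam1 again, Cxcl9, Cxcl10 and Podxl), none was lower in either list, and 6.47% of all genes were higher. The list medians were -0.04 and 0.39 on the log2 scale, against 0.01 over all genes. Il6, the interleukin-6 gene, stood at 61.3 CPM at 0 weeks (8 UMIs in 3 cells) and 642 CPM at 2 weeks (106 UMIs in 18 cells), a ratio of 10.5 (5.13 to 24.9). In the other ECs Il6 was at 22.0 and 101 CPM. Icam1 went from 60 UMIs in 22 of 33 cells to 159 UMIs in 37 of 57, a ratio of 2.10 (1.55 to 2.87), while the other ECs stayed at 188 and 181 CPM. Cxcl9 and Cxcl10, which encode T-cell chemokines, stood at 30.6 and 38.3 CPM at 0 weeks and at 121 and 206 CPM at 2 weeks, with ratios of 3.96 (1.32 to 15.9) and 5.38 (2.09 to 17.6) and values in the other ECs of 1.35 and 0.699. Without the cell that held most of its UMIs in each library, Cxcl10 stood at 16.0 and 153 CPM and Il6 at 15.9 and 512.5 CPM. Ch25h, which encodes an enzyme that makes an antiviral oxysterol, had 4 and 17 UMIs.

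Igfbp5 moved in opposite ways in the 2 groups of ECs. It stood at 582 CPM in the Vwf-high ECs at 0 weeks and 1739 CPM at 2 weeks, a ratio of 2.99 (2.31 to 3.90), and at 261 and 84.2 CPM in the other ECs, a ratio of 0.323 (0.279 to 0.372). Without the cell richest in it in each library, the Vwf-high ECs stood at 449 and 1343 CPM. The number of cells with an Igfbp5 UMI was 12 of 33 and 15 of 57, so the share of positive cells was not larger at 2 weeks. The richest cells at 2 weeks held 75, 55, 38, 37, 30 and 24 UMIs, and the remaining positive cells at most 11. At 0 weeks the richest cell held 19 UMIs.

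Of 12 genes tested in the list of venous and arterial fate, Sox18, Sox7 and Foxc1 were higher at 2 weeks and none was lower, against 1 higher in the other ECs. Sox18, which encodes a vascular SOX factor, had 4 UMIs at 0 weeks and 45 in 26 cells at 2 weeks, a ratio of 8.90 (3.24 to 34.1), and a ratio of 5.42 in the other ECs. Sox7 and Foxc1 had ratios of 2.16 and 2.27, against 1.39 and 1.09 in the other ECs, with an interval for Foxc1 that included 1 (0.982 to 5.88). Col15a1, a basement membrane collagen gene, was 5.54 (1.65 to 29.0) times higher, against 2.35 in the other ECs. Podxl, which encodes a sialomucin of the luminal surface, was 2.47 (1.65 to 3.77) times higher, against 2.93. Cysltr1, a leukotriene receptor gene, had 3 and 23 UMIs, a ratio of 6.06 (1.83 to 31.6), against 2.16 in the other ECs. H2-K1, a class I antigen-presenting gene, was 2.56 (1.97 to 3.36) times higher, against 1.99, and P4hb, a disulfide isomerase gene, 2.56 (1.35 to 5.19) times, against 0.913. Gm10036, Slc26a10, Ptbp1, Psmg4, 1810011O10Rik, Gm6133 and Gm2000 completed the 10 genes ranked highest, with between 2 and 8 UMIs at 0 weeks and ratios of 4.84 to 10.3. The reads of Gm10036, Gm6133 and Gm2000, predicted genes that may share sequence with other genes, are uncertain.

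**Figure D4:**
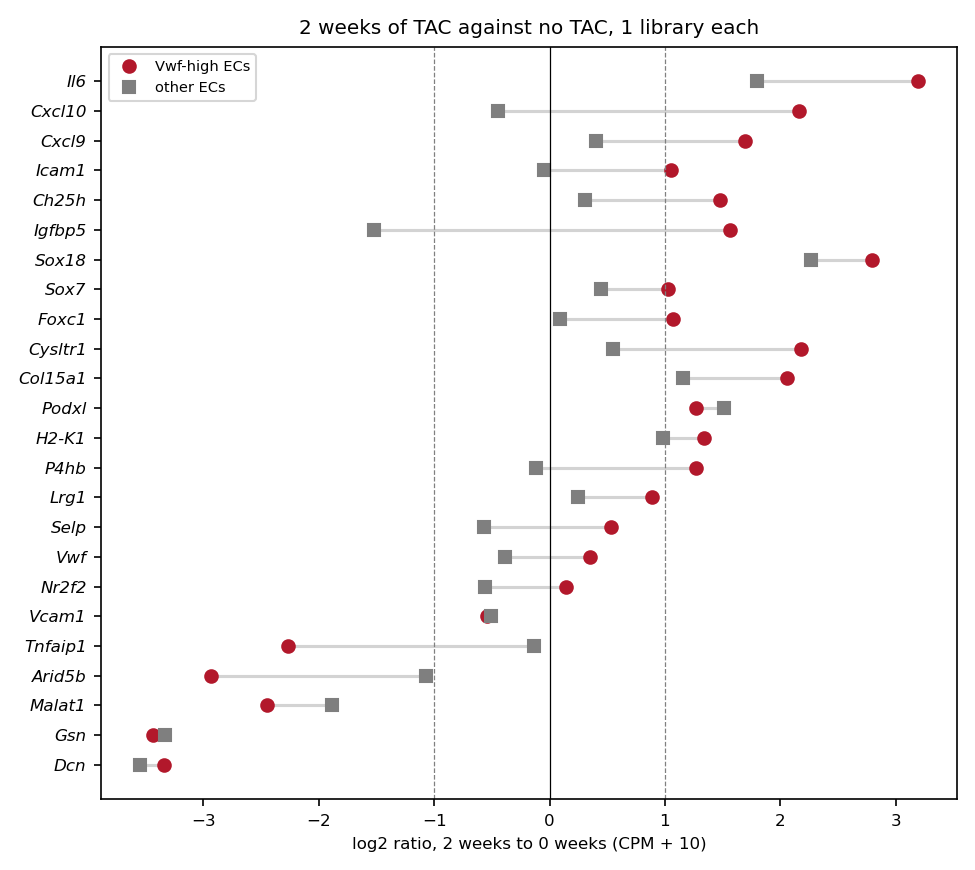
Log2 ratio of the level at 2 weeks to that at 0 weeks (horizontal axis, 10 CPM added) in Vwf-high ECs (circles) and in the other ECs (squares) for 24 genes described in the text, with dashed lines at 2-fold. Igfbp5, Cxcl10, Selp, Nr2f2 and P4hb are among the genes on opposite sides of 0 in the 2 groups, whereas Sox18, Podxl, Malat1, Gsn and Dcn are among those on the same side.

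The genes ranked lowest at 2 weeks also had ratios below 1 in the other ECs. Gsn, which encodes the actin-severing protein gelsolin and is abundant in FBs, had 30 UMIs at 0 weeks and 2 at 2 weeks, a ratio of 0.0527 (0.00611 to 0.208), against 0.0734 in the other ECs. Dcn, the FB gene decorin, had 36 and 3 UMIs, a ratio of 0.0659, against 0.0637. FBs were 1160 of 3892 cells in the healthy library and 97 of 2231 at 2 weeks, and the part of their RNA in these values was not tested. Malat1, a nuclear long non-coding RNA, stood at 44750 and 8209 CPM, a ratio of 0.183, against 0.271. Arid5b, which encodes a chromatin regulator, had a ratio of 0.113 (0.0494 to 0.228), against 0.458, and Tnfaip1 of 0.165 (0.0491 to 0.441), against 0.904. Filip1l, Rock2, Ceacam1, B230219D22Rik, Ing1 and Prpf4b had ratios between 0.198 and 0.222. Of the lists, the capillary (9 tested), fatty acid (8), immediate-early (19), interferon (7) and haemostasis (10) lists had no gene past 2-fold in either direction.

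At 12 weeks the values rest on 7 cells, of which 3 held Cytl1 and none held Hapln1. The summed endocardial genes, Cytl1 among them, were higher than at 0 and 2 weeks (1103 against 322 and 170 CPM). An alternative left out members with Hapln1 or Cytl1 in all 3 libraries at once. It moved no gene count by over 1.5 times, but such totals cannot show what these cells add to single genes. The part of the cells with Cytl1 in the 12-week levels was not tested. The cells held between 1449 and 4876 UMIs, and 4 of them carried Igfbp5 (37, 25, 15 and 6 UMIs) and no Cd36, while the other 3 carried no Igfbp5, and of these 2 had Cd36 (8 and 6 UMIs). Lrg1 had 10 UMIs, of which 8 lay in 1 cell, and the same cell held 21 of the 30 UMIs of Plvap, 8 of the 14 of Igf1 and 5 of the 7 of Lbp. Thbd, which encodes the anticoagulant receptor thrombomodulin, was found in all 7 cells, with 25 UMIs.

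Against 0 weeks, 131 of 1285 genes were higher at 12 weeks (10.2%) and 237 lower (18.4%), against 34 (2.65%) and 40 (3.11%) of the same genes in the other ECs. With zeros set to 3 UMIs, 204 were lower. Vwf had a ratio of 1.11 (0.736 to 1.63), Nr2f2 of 1.38 (0.464 to 3.45), Lrg1 of 1.86 (0.813 to 3.89) and Vcam1 of 0.624 (0.354 to 1.03), so that none of the 4 markers passed 2-fold. Thbd stood at 322 and 1103 CPM, a ratio of 3.43 (2.00 to 5.76), against 1.72 in the other ECs, and at 899.5 CPM at 12 weeks without its richest cell. Igfbp5 stood at 582 and 3662 CPM, and at 2586 CPM without its richest cell. Edn1, the endothelin-1 gene, had 14 and 11 UMIs, a ratio of 4.53 (1.86 to 10.7), but its 11 UMIs lay in 2 cells. Id2, which encodes an inhibitor of helix-loop-helix factors, had 21 UMIs at both times, a ratio of 5.76 (2.99 to 11.1), with 15 of the later 21 in 1 cell. No gene that met the rule for named genes was 2-fold higher, and the highest of them, Ssu72 and Snrpf, had a ratio of 1.80 (0.516 to 5.14). That rule leaves out genes with over 20% of their UMIs in 1 cell. With 7 cells this limit is hard to pass, since 1 cell held 4876 of all 22663 UMIs, so the outcome says little. Thbd, with 9 of its 25 UMIs in 1 cell, failed the limit. For genes lower at 12 weeks the limit applied to the 33 cells at 0 weeks.

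Among the lower genes at 12 weeks, Mcl1, which encodes a BCL2-family survival factor, had 43 UMIs at 0 weeks and none at 12 weeks, at least 2.49-fold lower, against a ratio of 0.512 in the other ECs. Another 8 of the genes ranked lowest, Slc6a6, Pde4b, P4ha1, Phlda1, Eif3m, Fam101b, Eif3a and Hp1bp3, had 26 to 31 UMIs at 0 weeks and none at 12 weeks, for which a 2-fold difference was not detectable. Cxcl12, a chemokine gene, had 62 and 0 UMIs, at least 3.59-fold lower, whereas the other ECs had a ratio of 1.64. Igfbp7 had 108 and 1 UMIs, a ratio of 0.0533 (0.00134 to 0.303), against 0.830.

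Most immediate-early genes were lower at 12 weeks. Of 19 such genes, 12 were lower, where 18.4% of all genes were, among them Jun, Junb, Egr1, Atf3, Klf4 and Zfp36, and none was higher, with a median log2 ratio of -1.41 (-1.35 with zeros set to 3 UMIs) against -0.01 over all genes. In the other ECs 3 of the 19 were lower and the median was -0.39. Junb, for example, stood at 5056 and 1633 CPM, a ratio of 0.323 (0.225 to 0.450), against 0.908 in the other ECs, with 46.0% of its later UMIs in 1 cell (72% for Jun), and Klf4, a shear-responsive factor gene, at 1938 and 485 CPM, against 0.818. Of 10 inflammation genes tested, 6 were lower (again beside 18.4% of all genes), including Nfkbia, at 1907 and 397 CPM, and Socs3, at 1333 and 309 CPM, against 1 in the other ECs. Icam1 had 60 and 2 UMIs, a ratio of 0.192 (0.0227 to 0.725), against 1.21. Of 8 capillary genes, 6 were lower (4 with zeros set to 3 UMIs, and 18.4% of all genes), with Cd36 at 1670 and 618 CPM, Lpl with 49 and 0 UMIs and Rgcc with 67 and 0 UMIs, while none was lower in the other ECs.

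Between 2 and 12 weeks, 166 of 1517 genes were higher (10.9%) and 286 lower (18.9%), against 29 (1.91%) and 24 (1.58%) in the other ECs. Selp had 50 UMIs at 2 weeks and 0 UMIs at 12 weeks, at least 2.29-fold lower, and Icam1 159 and 2 UMIs, a ratio of 0.0916 (0.0110 to 0.336), against 1.25 in the other ECs. Of the immediate-early genes, 11 of 19 were again lower, and Mgp, which encodes a matrix inhibitor of calcification, stood at 721 and 1941 CPM, against a ratio of 5.97 in the other ECs. All of these values rest on the same 7 cells.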

How the data were processed

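Single-cell RNA-seq of non-cardiomyocytes was analysed in 3 libraries, 1 per phase. The authors deposited raw UMI counts per gene and cell for each library. The counts had been made with Cell Ranger 2.0.0 per the submitters' processing notes and the mm10 genome build, after droplet capture, and covered 27998 genes. Cells with under 200 genes were left out. Counts were summed over the cells of a group in each library and divided by the summed total, with no further normalisation, with pandas 2.3.3 and numpy 2.4.6 (Python 3.11.15), and intervals came from scipy 1.17.1. No count model or test was run, since a phase had 1 library. Ratios and their intervals were tested on simulated data. The named genes were the 15 each way against the other ECs with the largest smallest ratio over the libraries, and the 10 each way between 0 weeks and a later phase, at 100 CPM or more in the higher group and with at most 20% of the UMIs of that group in 1 cell, leaving out genes of the rule and mitochondrial, ribosomal protein and haemoglobin genes. The result for 1 named gene at 12 weeks is not reported here. The members and gene lists were chosen with earlier results of these data known. Scrublet (scanpy 1.11.5) called 35, 2 and 5 doublets at 0, 2 and 12 weeks, which were kept, and leaving them out was tried as an alternative. The low number at 2 weeks limits what that alternative can show. Gene positions are from GENCODE vM21 and promoter sequences from RefSeq. Alternatives changed the Vwf minimum, the cell filters, depth, doublets, the comparator, the added CPM and the UMI minimum.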

Additional observations from a re-analysis of the deposited data

Results flagged for a closer look

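For 4 genes the level in the Vwf-high ECs and that in the other ECs differed between phases in opposite directions, by at least 2-fold in each (10 CPM added). With 1 library per phase the difference was not tested. Igfbp5 had a log2 ratio of 1.56 between 2 and 0 weeks in the Vwf-high ECs, whereas its ratio in the other ECs was 0.323. For Plvap the make-up of the other ECs matters, since they held 44 Npr3-bearing ECs at 0 weeks and 4 at 12 weeks. Plvap in the Vwf-high ECs was 0.318 (0.198 to 0.492) times its level in those 44 cells. Their part in the lower level of the other ECs at 12 weeks was not tested. Plvap had a log2 ratio of 2.73 between 12 and 0 weeks, with 57.2 and 20.2 CPM at 0 and 12 weeks in the other ECs, and 21 of its 30 UMIs at 12 weeks lay in 1 cell. Lbp had a log2 ratio of 1.44 between 12 and 0 weeks, with 7 UMIs at 12 weeks, 5 of them in that same cell. Igf1 had a log2 ratio of 2.52 between 12 and 0 weeks and of 1.28 between 12 and 2 weeks, with 14 UMIs in 3 cells at 12 weeks and 2 UMIs in the other ECs there. Without the cell richest in the gene at 12 weeks, Lbp stood at 112 CPM there, beside 107 CPM at 0 weeks with all cells, so its difference ended. Plvap stood at 506 CPM beside 192 CPM at 0 weeks, and Igf1 at 337 CPM beside 99.6 CPM at 0 weeks and 248 CPM at 2 weeks, so that Igf1 between 12 and 2 weeks was no longer past 2-fold.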

How the results depend on the processing

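No paired analysis was possible because each phase had 1 library and the labels give no replicate numbers. The values above rest on 97 cells, and those at 12 weeks on 7. With a Vwf minimum of 1 UMI the shares of ECs were 5.12%, 6.10% and 6.15% at 0, 2 and 12 weeks, 17 genes were higher and 32 lower than in the other ECs, and 7 list genes were lower in place of 12. With a minimum of 3 UMIs the share at 2 weeks was 2.47%. With the minimum set per depth the share at 0 weeks was 1.97%, and the genes higher and lower were 100 and 60 of 1228 tested for 2 against 0 weeks, 71 and 118 of 654 for 12 against 0 weeks, and 77 and 152 of 859 for 12 against 2 weeks. With cells thinned to 1000 UMIs the shares at 0 and 2 weeks were 1.65% and 2.18%, 9 of 1144 genes were higher than in the other ECs, and the phase counts were 35 and 11 of 249, 15 and 19 of 103, and 22 and 48 of 199 in the same order. The thinning also reversed 6 genes, with log2 ratios of -0.49 for Cxcl1 and -2.23 for Grina against the other ECs, and -0.997 for Ptbp1, -3.46 for Gm6133 and 2.53 for both Tnfaip1 and Ceacam1 for 2 against 0 weeks, where thinning leaves few UMIs. With Nr2f2 required the shares at 0 and 2 weeks were 1.87% and 1.56%, 103 genes were lower than in the other ECs, and the phase counts were 86 and 71 of 1209, 72 and 136 of 687, and 65 and 132 of 685. With at least 50 UMIs per gene, 10 genes were higher and 30 lower of 1385 against the other ECs, 7 list genes were lower, and the phase counts were 39 and 25 of 923, 33 and 75 of 473, and 34 and 88 of 579. In all of these phase counts fewer genes could be tested than the 2349, 1285 and 1517 above. Alternatives chosen after seeing the data gave 103 genes higher and 165 lower, with 23 list genes higher in place of 6, for the 0- and 2-week libraries alone, and 20 genes lower in all 3 libraries with zeros set to 3 UMIs. The causes of the other changes were not tested. Adding 1 CPM, a mean over cells, a minimum of 500 genes or 1500 UMIs per cell, other ECs without Vwf or without Npr3 and arterial UMIs, and leaving out Scrublet doublets, cells over 10% mitochondrial UMIs, cells with Prox1 or Lyve1, or (chosen after seeing the data) members with Hapln1 or Cytl1 moved none of the shares beyond its interval and no gene count by over 1.5 times.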
